A study of Rattus norvegicus with 43 samples.

Results

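The pituitary lineage transcription factors examined here were 8 genes: Pitx1, Lhx3, Hesx1, Gata2, Nr5a1, Isl1, Tbx19 and Neurod1. A gene was taken as measured where the platform annotation gave its symbol alone for a probe set, the group of short array probes read together as 1 value. This held for 6 of the 8 factors, with 9 probe sets among the 20826 singly named probe sets of 14217 genes in the whole series. Each factor was represented by its probe set with the highest mean, and the second probe sets of Gata2, Nr5a1 and Isl1 were kept beside it. No singly named probe set matched Lhx3 or Hesx1, and these genes were not analysed here. Values are given as log2 of the deposited intensity plus 16.

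The samples were anterior pituitary glands of 43 male rats, 1 array per animal, from the F2 generation of a cross that mated COP (Copenhagen) females to ACI males. Every animal had diethylstilbestrol (DES), an artificial estrogen, from silastic tubing holding 5 mg that was set under the skin at 9 weeks of age, was treated for 12 weeks and was sacrificed at 21 weeks. Bromodeoxyuridine (BrdU), a label of dividing cells, was injected at 50 mg/kg in the last 4 hours. No untreated rats were among the arrays, so all values describe glands under estrogen. The design text states that the animals came from the extremes of pituitary weight, 22 heavy and 21 light glands, but which animal was heavy and which light is not labelled. The 43 animals were therefore treated as 1 group and are named by the number in their labels.

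The anterior pituitary makes its hormones in specialised cell types, and each type is set up in the embryo by a combination of transcription factors, largely worked out in mouse. Lactotrophs make prolactin (Prl), somatotrophs growth hormone (Gh1), thyrotrophs the beta subunit of thyrotropin (Tshb), gonadotrophs the beta subunits of luteinizing and follicle-stimulating hormone (Lhb, Fshb) and corticotrophs pro-opiomelanocortin (Pomc). Thyrotrophs and gonadotrophs share the alpha subunit Cga. Pitx1 acts in most of these lineages, Lhx3 and Hesx1 act early in the pouch that forms the gland, Gata2, Nr5a1 and Isl1 are associated with gonadotrophs and, for Gata2 and Isl1, with thyrotrophs, and Tbx19 and Neurod1 with corticotrophs.

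The arrays carried 31042 probe sets that were not controls. The deposited intensities had been scaled, with array medians from 123.1 to 142.0, and no columns were identical. Array 43 stood apart: its mean Pearson r with the other arrays was 0.935, against 0.956 to 0.964 for the rest, and its 3' minus 5' difference of the actin control probe sets, a sign of RNA quality, was 1.97 log2 units, with 1.67 the next highest. Of 7 hormone genes used as markers of the anterior lobe, 6 lay above the median level of all probe sets (7.16), and none of 5 markers of the posterior lobe and hypothalamus (Avp, Oxt, Rax, Nkx2-1, Gfap) did. Of 2 measured markers of the intermediate lobe (Pcsk2, Pomc), 1 did. Precision is limited by the number of arrays. These are whole glands, in which fewer cells of a type and less RNA per cell cannot be told apart.

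Pitx1, a homeodomain factor of most pituitary lineages, had its lowest value of 8.40 in animal 43, a median of 9.10 and its highest value of 9.48 in animal 12 (mean 9.11 ± 0.19, SD, n = 43). Its range was narrow, a 2.12-fold difference between the highest and lowest animal on the offset scale, and without animal 43 its SD was 0.15. The median SD of the 3788 probe sets within 0.5 log2 units of its mean was 0.22. Over all 43 animals the spread of Pitx1 was thus close to that of other probe sets of its brightness. Its SD without animal 43 lay below the 10th percentile of those probe sets, 0.16, which was taken with animal 43.

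Nr5a1, the nuclear receptor also called steroidogenic factor 1, which is required for gonadotrophs to express their hormones in mouse, spanned 6.05 in animal 2 to 8.79 in animal 43, with a median of 7.65 (mean 7.71 ± 0.59, SD, n = 43). Its highest animal was 6.69-fold above its lowest. The median SD of nearby probe sets was 0.31 and their 90th percentile 0.46, so that Nr5a1 varied more than most probe sets of its brightness. The animals with the next lowest and next highest values were 10 and 41.

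Gata2, a zinc-finger factor of gonadotrophs and thyrotrophs, ranged from 5.86 in animal 15 over a median of 6.98 to 7.78 in animal 34 (mean 6.86 ± 0.55, SD, n = 43). Nearby probe sets had a median SD of 0.43 and a 90th percentile of 0.64, so its spread was within the usual range for its level. Isl1, a LIM homeodomain factor of the early pouch and later of the glycoprotein hormone lineages in mouse, had the widest spread of the 6 factors. It lay at 4.80 in animal 22, had a median of 6.68 and reached 7.91 in animal 24, an 8.63-fold range on the offset scale (mean 6.47 ± 0.92, SD, n = 43). Its SD exceeded the 90th percentile of nearby probe sets, 0.72.

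The corticotroph factors had lower SDs than Nr5a1, Gata2 and Isl1 and higher ones than Pitx1. Tbx19, the T-box factor also called Tpit, was lowest at 5.90 in animal 18, had a median of 6.91 and was highest at 8.16 in animal 36 (mean 6.98 ± 0.49, SD, n = 43). Neurod1, a basic helix-loop-helix factor that activates Pomc together with other factors, was lowest at 7.05 in animal 2, had a median of 8.20 and was highest at 9.04 in animal 26 (mean 8.19 ± 0.38, SD, n = 43). The nearby probe sets had a median SD of 0.41 and a 90th percentile of 0.62 for Tbx19. For Neurod1 these were 0.27 and 0.39, so that its own SD lay just below that 90th percentile. Animal 2 held the lowest value of both Nr5a1 and Neurod1 and the next lowest of Pitx1. Mean levels of Pitx1, Nr5a1 and Neurod1 lay above the median of all probe sets, and those of Gata2, Isl1 and Tbx19 below it.

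**Figure D1:**
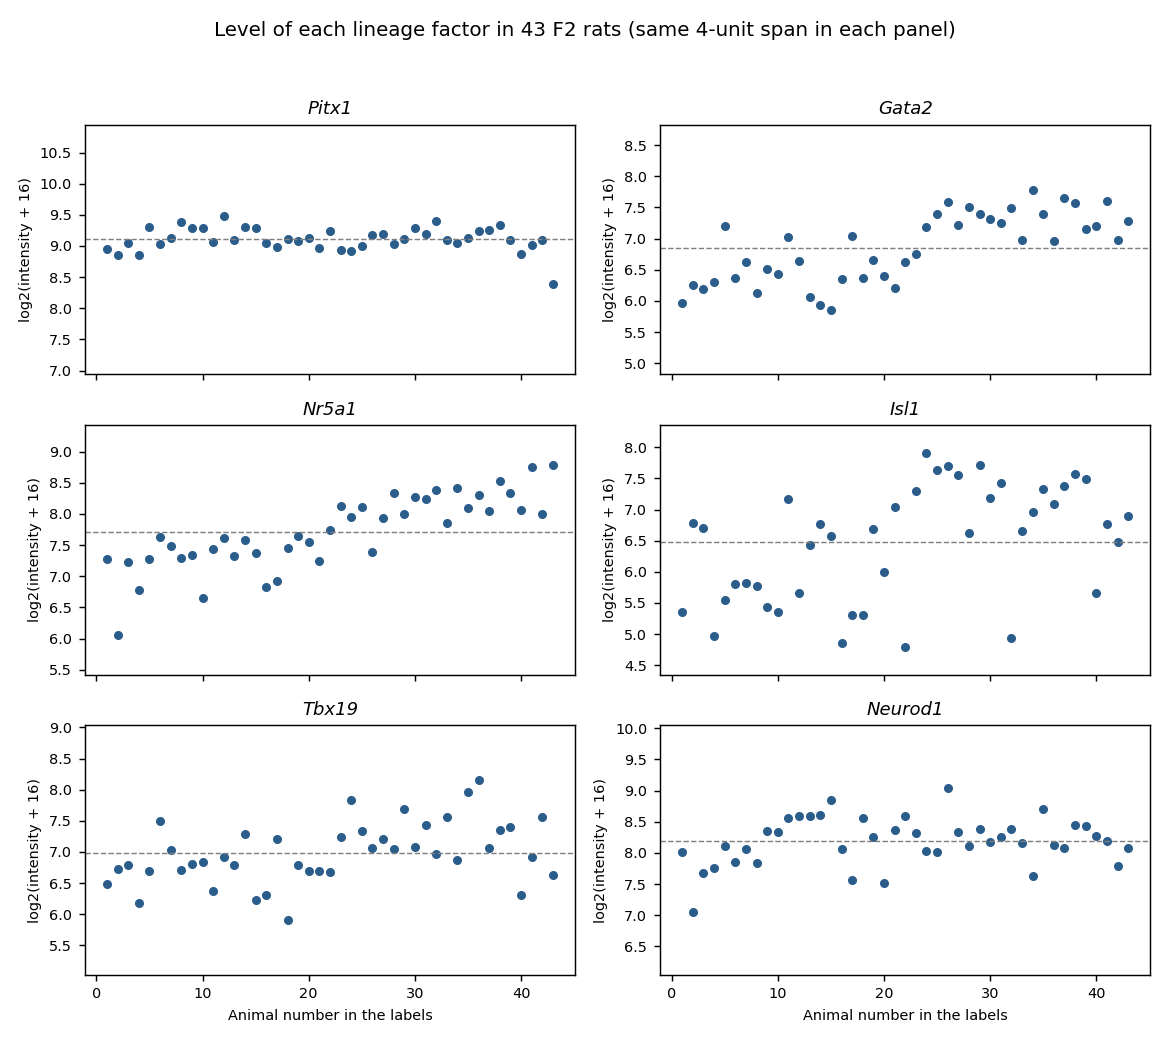
Level of each of the 6 measured factors, as log2 of intensity plus 16, by animal number, with 1 point per animal, a dashed line at the mean and the same 4-unit span in each panel. Pitx1 stays between 8.40 and 9.48, Isl1 is scattered from 4.80 to 7.91, and the high values of Gata2 and Nr5a1 lie among the higher animal numbers.

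The second probe sets gave a different picture of the same genes. Those of Gata2, Nr5a1 and Isl1 were dim, with means of 5.43 ± 0.73, 4.43 ± 0.42 and 4.87 ± 0.63 (SD, n = 43 each). Across animals their Pearson r with the brighter probe set of their gene was 0.0755 for Gata2, 0.309 for Nr5a1 and -0.256 for Isl1. Spearman rho was 0.0656, 0.499 and -0.159, so that only the second probe set of Nr5a1 followed the brighter one, and loosely. Every result below that names these genes rests on the brighter probe set alone. Fitted on the 6 hormone genes, the second probe sets passed in 0 of 18 limma regressions, with 6.62% of all probe sets passing on Prl and other shares given below. The lowest adjusted p was 0.0848, for Nr5a1 on Tshb, and 3 of the 18 had an unadjusted p below 0.05, those of Nr5a1 with Cga, Tshb and Fshb. Of all probe sets, 8339 had one on Cga, 7856 on Tshb and 7427 on Fshb.

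The hormone genes that define the lineages were set beside the factors. Prl had the narrowest range of the 6, from 15.40 to 16.14 with a median of 15.63, its highest value being that of animal 43. Its mean was above that of 99.9968% of all probe sets, and its SD of 0.14 equalled the median SD of the 28 nearby ones. Whether the array could resolve differences at this brightness was not tested. Gh1 ranged from 13.96 to 15.65 (median 14.99), Cga from 14.05 to 15.73 (median 14.98) and Lhb from 7.45 to 9.16 (median 8.13). Tshb had the widest range, from 10.28 to 14.27 (median 12.40), and Fshb ranged from 6.58 to 9.01 (median 7.63). Pomc was dim, with a median of 5.50. Gh1, Cga, Tshb and Fshb moved together, with r between 0.815 and 0.931 for their pairs, so that the 4 fits on them are not independent of each other.

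Promoters of 4 hormone genes are shown because they are the genes these factors are best known to act on, with the 250 bases before the gene start (RefSeq annotation of assembly GRCr8). No build is named for the array values, and the windows are given for the genes only. Capitals mark matches to the letters searched on both strands. For homeodomains of the bicoid type such as that of Pitx1 these were TAATCC, for Nr5a1 AAGGTCA and for the GATA factors AGATAA. For LIM homeodomains such as that of Lhx3 they were TAATTA, for the E-box bound by Neurod1 CAGATG and for T-box factors GGTGTGA. These motifs do not overlap where they were found.
Cga, chr5:54283090-54283339, plus strand: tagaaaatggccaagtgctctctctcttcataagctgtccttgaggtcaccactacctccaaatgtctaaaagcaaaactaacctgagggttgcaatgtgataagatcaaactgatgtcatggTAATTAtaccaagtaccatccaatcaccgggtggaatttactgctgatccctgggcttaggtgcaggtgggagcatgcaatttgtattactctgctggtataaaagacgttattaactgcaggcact
Tshb, chr2:192918055-192918304, minus strand: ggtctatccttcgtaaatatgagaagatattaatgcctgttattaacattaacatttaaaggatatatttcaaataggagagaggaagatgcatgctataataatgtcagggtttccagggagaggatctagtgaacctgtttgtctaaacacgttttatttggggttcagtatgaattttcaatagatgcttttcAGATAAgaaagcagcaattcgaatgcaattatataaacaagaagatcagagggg
Lhb, chr1:105037207-105037456, plus strand: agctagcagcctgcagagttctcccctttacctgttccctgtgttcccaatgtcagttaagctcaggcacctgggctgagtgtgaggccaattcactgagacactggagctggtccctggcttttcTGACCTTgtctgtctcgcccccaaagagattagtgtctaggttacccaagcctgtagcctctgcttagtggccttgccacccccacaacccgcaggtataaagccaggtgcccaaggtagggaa
Pomc, chr6:32659103-32659352, plus strand: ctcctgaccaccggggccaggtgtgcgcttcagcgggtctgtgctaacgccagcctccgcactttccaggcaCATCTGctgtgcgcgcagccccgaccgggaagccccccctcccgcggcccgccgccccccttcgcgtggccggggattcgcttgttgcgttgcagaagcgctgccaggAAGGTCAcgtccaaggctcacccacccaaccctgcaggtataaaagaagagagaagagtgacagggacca

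In these windows Cga held TAATTA 127 to 122 bases before the start, and Tshb held AGATAA 54 to 49 bases before it. Lhb held AAGGTCA on the opposite strand, where it reads TGACCTT, 124 to 118 bases before the start, while the window of a second annotated Lhb start held none of the motifs. Pomc held AAGGTCA 70 to 64 bases before its start and CAGATG on the opposite strand 178 to 173 bases before it. Prl, with a window on chromosome 17, held TAATTA and AGATAA. Among the factors themselves, Tbx19 (chromosome 13) held TAATTA at 2 places, Gata2 (chromosome 4) held GGTGTGA and Isl1 (chromosome 2) held AGATAA. The windows of Nr5a1, Neurod1 and Lhx3 on chromosome 3 and of Hesx1 on chromosome 16 held none of these letters. Over all 33469 promoters of this length, TAATCC occurred in 6.34%, AAGGTCA in 3.99%, AGATAA in 10.3%, TAATTA in 4.86%, CAGATG in 14.0% and GGTGTGA in 3.22%. A match is a description of the letters only.

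To see which factors varied with which hormone, all probe sets were regressed on the level of each hormone gene with limma, and p-values were adjusted by the Benjamini-Hochberg method over all probe sets. Across the 36 pairs of a factor and a hormone, 15 passed an adjusted p of 0.05, all with a positive slope, and 23 had an unadjusted p below 0.05. An unadjusted p below 0.05 was reached by 8339 of 31041 probe sets on Cga, 7856 on Tshb and 7376 on Gh1. It was reached by 6540 on Prl, 3025 on Lhb and 7427 of 31040 on Fshb. Gata2, Nr5a1 and Isl1 each passed with 4 hormones, Gh1, Cga, Tshb and Fshb. Tbx19 passed with Cga, Tshb and Fshb. Pitx1 and Neurod1 passed with none.

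The shares of all probe sets that passed give the scale of these counts. On Cga, 4 of 6 factors passed, where 14.9% of all probe sets did and 7.82% with a positive slope. On Fshb the count was also 4, against 11.4% of all probe sets and 6.12% with a positive slope, and on Tshb 4, against 13.2% and 6.87%. On Gh1 it was 3, against 11.3% and 5.88%. On Prl 0 factors passed, where 6.62% of all probe sets did (0.213% without animal 43), and on Lhb 0, where 0.0322% did. For both, 3 factors had an unadjusted p below 0.05: Pitx1, Gata2 and Nr5a1 with Prl, and Gata2, Nr5a1 and Isl1 with Lhb. Of 31041 probe sets, 6540 had one on Prl and 3025 on Lhb. The median slope of the 6 factors was 0.87 on Cga, 0.70 on Gh1, 0.47 on Fshb and 0.36 on Tshb, and that of all probe sets was 0.02 on Cga, 0.01 on Gh1, 0.01 on Fshb and 0.01 on Tshb.

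**Figure D2:**
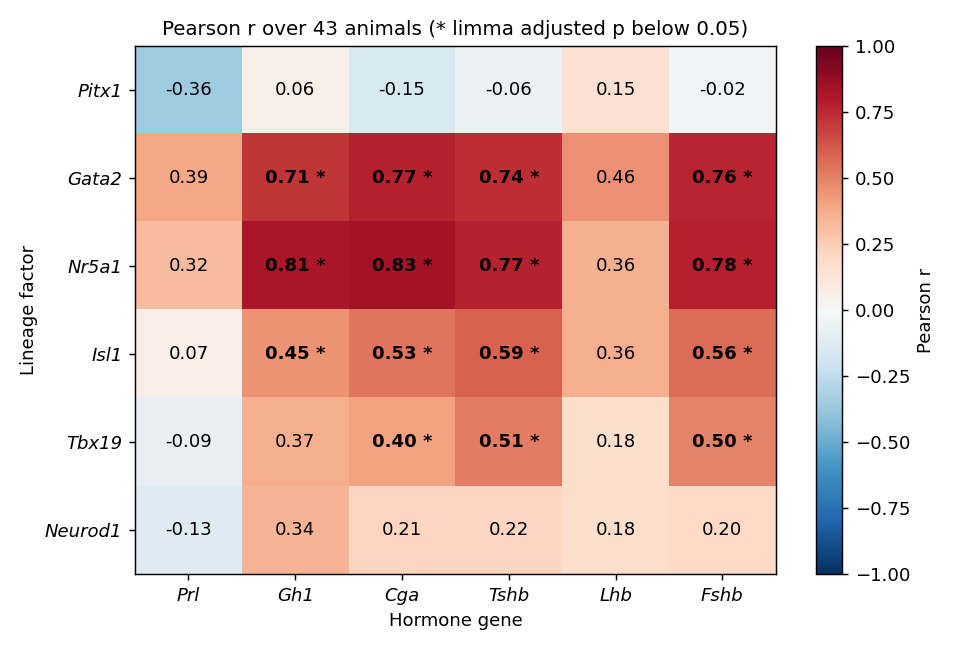
Pearson r between each of 6 factors (vertical) and each of 6 hormone genes (horizontal) over 43 animals, with colour from blue at -1 to red at 1, and an asterisk where the limma fit passed an adjusted p of 0.05. The 15 pairs that passed lie in the Gh1, Cga, Tshb and Fshb columns, with the highest r of 0.83 for Nr5a1 with Cga.

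Of the 6 factors, Nr5a1 had the highest r with Gh1, Cga, Tshb and Fshb, while Gata2 had the highest with Prl and Lhb. Its slope on Cga, the shared alpha subunit, was 1.36 ± 0.14 log2 units per log2 unit (SE, limma adjusted p = 2.16e-09), with r = 0.832 and rho = 0.824. Both had a permutation p of 1e-05 (2-sided), the smallest that 100000 permutations can give, and r was 0.805 without animals 4 and 43, the farthest in Cga. On Gh1 the slope was 1.17 ± 0.13 (limma adjusted p = 2.95e-08), on Fshb 0.65 ± 0.08 (1.32e-07) and on Tshb 0.50 ± 0.06 (2.67e-07), with r from 0.767 to 0.814 and the same smallest permutation p. Nr5a1 thus followed the somatotroph hormone Gh1 as well as the glycoprotein hormone genes. With Lhb, whose promoter window holds the AAGGTCA match, it did not pass: the slope of Nr5a1 on Lhb was 0.67 ± 0.27 (95% interval 0.13 to 1.21, limma adjusted p = 0.348). There r was 0.359 (permutation p = 0.0185) and rho 0.411 (permutation p = 0.00678). Only 0.0322% of all probe sets passed on Lhb, so this does not show that Nr5a1 was unrelated to it.

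Gata2 followed the same hormones. Its slope on Cga was 1.19 ± 0.15 (SE, limma adjusted p = 2.07e-07), with r = 0.771 and rho = 0.808 (permutation p = 1e-05 for both), and r was 0.797 without animals 4 and 43. On Fshb the slope was 0.60 ± 0.08 (limma adjusted p = 6.07e-07), on Tshb 0.45 ± 0.06 (1.53e-06) and on Gh1 0.97 ± 0.15 (9.55e-06), with r from 0.713 to 0.759. With Tshb, whose promoter window holds an AGATAA match, r was 0.740. With Fshb, for which no window was at hand, it was 0.759. Whether r goes with a match was not tested. On Prl the slope was 1.54 ± 0.56 (95% interval 0.40 to 2.68, limma adjusted p = 0.0901), with r = 0.385 (permutation p = 0.00919) and 0.341 without animals 43 and 15. In the fit of all probe sets on Gata2, Lhb itself passed (limma adjusted p = 0.0334, up to 0.0800 and lost in 5 of 43 fits that left out 1 animal).

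Isl1 had lower r with the same hormones. Its slope on Tshb was 0.60 ± 0.12 (SE, limma adjusted p = 0.000649), with r = 0.590 (permutation p = 1.1e-04) and rho = 0.599 (permutation p = 3e-05), and r was 0.529 without animals 4 and 38. On Fshb the slope was 0.73 ± 0.17 (limma adjusted p = 0.00195), on Cga 1.37 ± 0.33 (0.00301) and on Gh1 1.02 ± 0.31 (0.0230). The Gh1 relation depended on 1 animal: without animal 4 its slope was 0.94, with an adjusted p of 0.0569.

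Tbx19, a factor of corticotrophs, passed with glycoprotein hormone genes. Its slope on Tshb was 0.27 ± 0.07 (SE, limma adjusted p = 0.00657), with r = 0.508 (permutation p = 0.00059) and rho = 0.545 (permutation p = 0.00026), and r was 0.451 without animals 4 and 38. On Fshb it was 0.35 ± 0.09 (limma adjusted p = 0.00884). On Cga it was 0.55 ± 0.19 (limma adjusted p = 0.0442), a call lost in 21 of 43 fits that left out 1 animal, with an adjusted p up to 0.105. On Gh1 the slope was 0.44 ± 0.17 (limma adjusted p = 0.0909).

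Pitx1 and Neurod1 passed with no hormone. The slope of Pitx1 on Cga was -0.08 ± 0.08 (SE, 95% interval -0.25 to 0.09), and its intervals on Gh1, Tshb and Fshb also contained 0 and lay within -0.12 and 0.18. These intervals include animal 43 and depend on it. Without that animal the slope on Gh1 was 0.10 ± 0.06 (limma adjusted p = 0.355), with r = 0.262, against 0.0580 over all animals. With Cga r was 0.0696 without animal 43, against -0.155. On Prl its r was -0.357 (permutation p = 0.0231), but rho was -0.0753 and r was -0.00551 without animal 43, so that this value rested on the array that stood apart. The slope of Neurod1 on Gh1 was 0.32 ± 0.14 (95% interval 0.05 to 0.60, limma adjusted p = 0.126), and its r of 0.343 was 0.127 without animals 2 and 4. Intervals of this width do not show that Neurod1 was unrelated to the hormones.

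**Figure D3:**
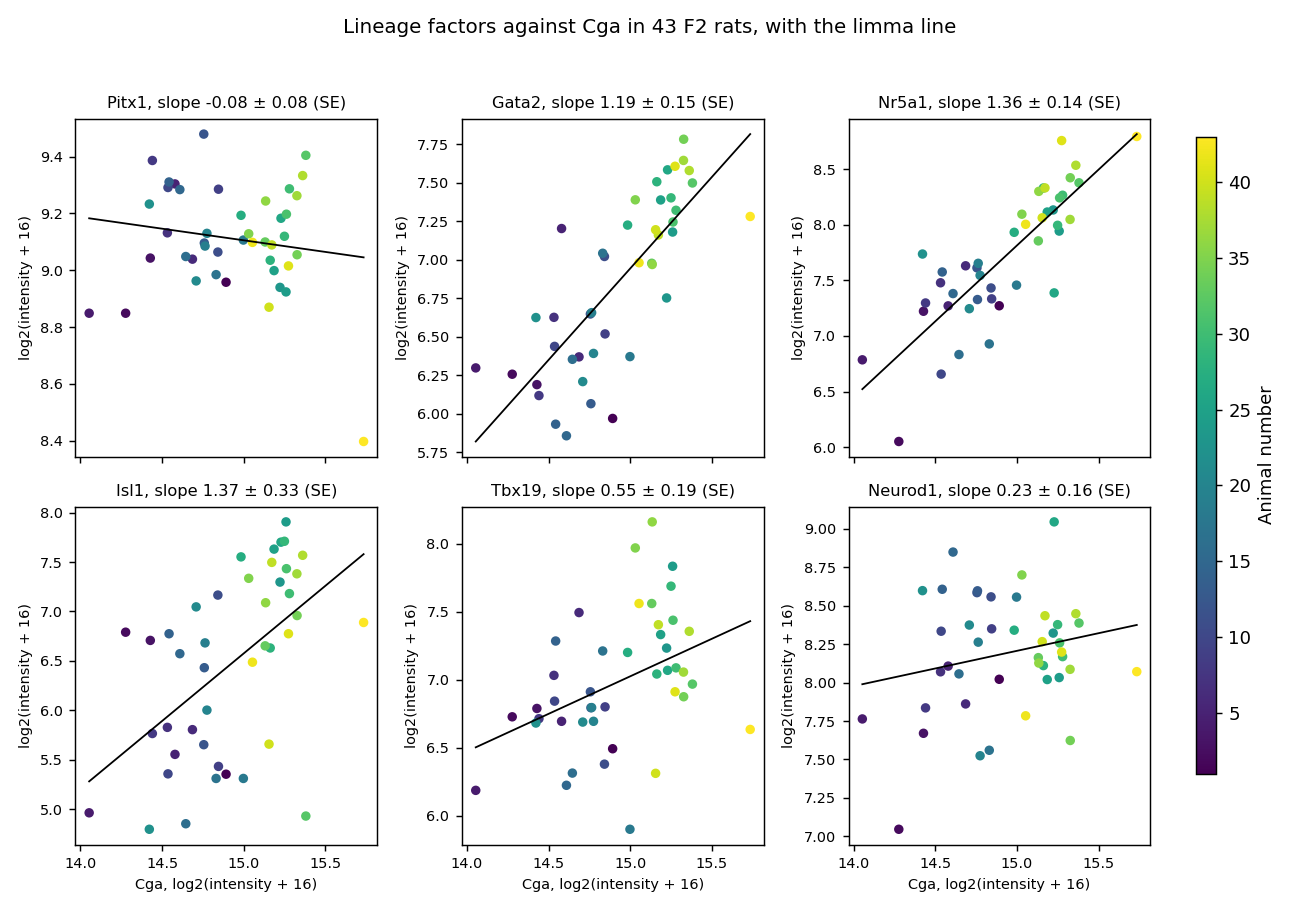
Each factor against Cga, both as log2 of intensity plus 16, with 1 point per animal coloured by animal number and the limma line. Nr5a1 rises along the line with a slope of 1.36, Gata2 with 1.19 and Isl1 with 1.37, Pitx1 is flat at -0.08, and the low animal numbers (dark) lie at the lower end of Cga.

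The factors and the hormones also followed the order of the animal numbers. The r between successive animals was 0.64 for Nr5a1, 0.69 for Gata2, 0.70 for Cga, 0.67 for Tshb and Fshb and 0.59 for Gh1. It was 0.33 for Isl1, 0.23 for Tbx19 and Neurod1, 0.18 for Pitx1, 0.12 for Prl and 0.03 for Lhb. The limma and permutation p-values over all animals take the animals as independent and can thus be too small. A smooth course over animal number (a natural spline with 6 degrees of freedom) was fitted to every probe set with limma, and 4 of 6 factors passed, where 15.9% of all probe sets did. It took up 72.7% of the variance of Nr5a1 (adjusted p = 2.80e-06), 71.6% of that of Gata2 (3.82e-06), 47.6% of that of Pitx1 (0.0115) and 37.4% of that of Tbx19 (0.0373). Isl1 at 32.8% (limma adjusted p = 0.0747) and Neurod1 at 29.4% (0.135) did not pass. Among the hormones, the same course took up 72.5% of the variance of Cga, 71.1% of that of Fshb, 65.6% of that of Tshb and 64.4% of that of Gh1, all past the threshold, and 28.6% of that of Prl and 29.6% of that of Lhb, which were not. Without animal 43, 2 of 6 factors passed, where 9.0% of all probe sets did, with Pitx1 at an adjusted p of 0.106 and Tbx19 at 0.0674 in the limma fit. The call of Tbx19 was lost in 11 of 43 fits that left out 1 animal.

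Earlier results of these data had shown a step between animals 22 and 23, which leaves 22 and 21 animals, the sizes of the 2 weight classes. Whether the ranges are the classes is not labelled, and weight class, any order of processing and the number itself cannot be told apart. Relations were therefore also computed within each number range. Within animals 1 to 22 and within animals 23 to 43, the r of Nr5a1 with Cga was 0.450 and 0.554, and with Gh1 0.513 and 0.490, against 0.832 and 0.814 over all animals. For Gata2 with Cga it was 0.187 and 0.329, against 0.771. For Isl1 with Tshb it was 0.00763 and 0.352, and for Tbx19 with Cga -0.0125 and -0.451. Over all relations that passed, r within animals 1 to 22 ran from 0.198 to 0.513 for Nr5a1 and from 0.0969 to 0.187 for Gata2. It ran from -0.200 to 0.0633 for Isl1 and from -0.195 to 0.0260 for Tbx19. Within animals 23 to 43 it ran from 0.423 to 0.554 for Nr5a1 and from 0.248 to 0.365 for Gata2. There it ran from -0.105 to 0.352 for Isl1 and from -0.451 to 0.146 for Tbx19. Of the 15 relations that passed over all animals, 10 had an r above 0 in both ranges, 8 of them those of Nr5a1 and Gata2.

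With the spline of animal number as a covariate in the limma fit, 0 of the 15 relations passed, and the same held with the step as a covariate. The r left after the spline was removed from both genes ran from 0.325 to 0.512 for the 4 relations of Nr5a1, from 0.249 to 0.364 for those of Gata2, from 0.0698 to 0.331 for those of Isl1 and from 0.0211 to 0.233 for those of Tbx19. Whether these ranges differ between factors was not tested. The shares of all probe sets shrank in the same way: with the spline 0.087% of probe sets passed on Cga, where 14.9% had done so without it. Among the 15 relations in both kinds of fit, the lowest adjusted p was 0.0957, for Nr5a1 on Cga with the step.

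**Figure D4:**
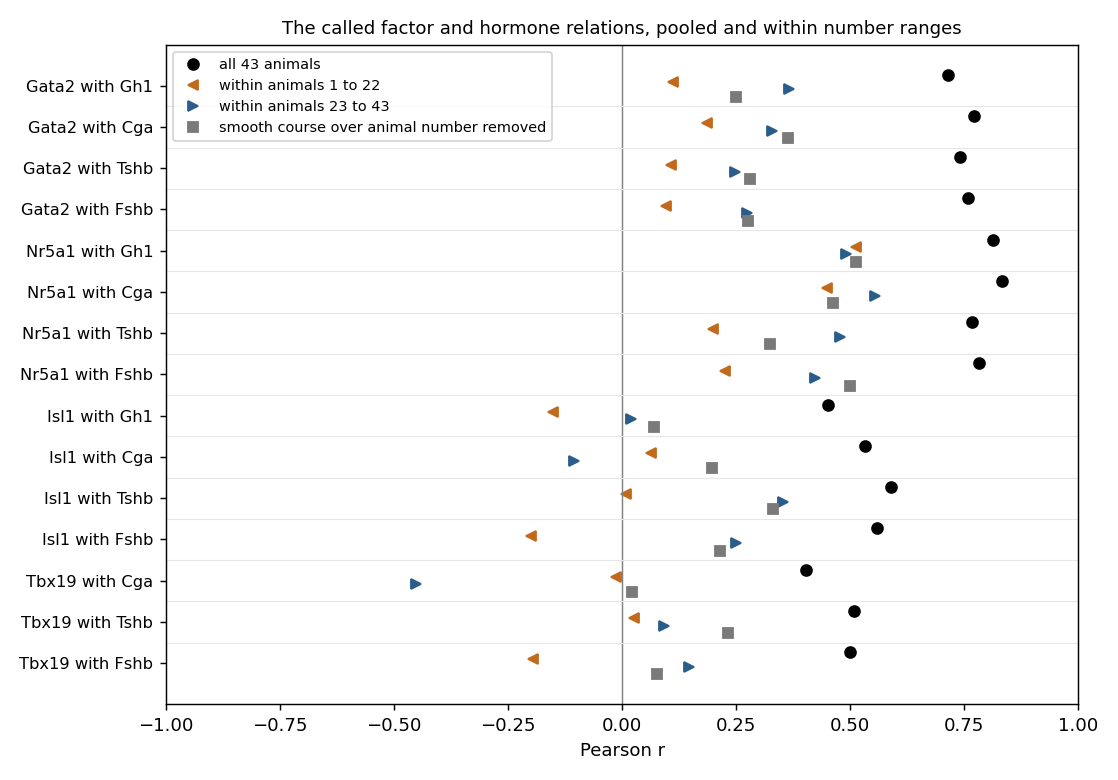
Pearson r (horizontal) of the 15 factor and hormone relations that passed over all animals, for all 43 animals (circles), within animals 1 to 22 (left triangles), within animals 23 to 43 (right triangles) and after removing a smooth course over animal number (squares). All 15 circles lie between 0.403 and 0.832, while the squares lie between 0.0211 and 0.512.

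Among the 15 pairs of the 6 factors, 1 passed in both of its limma fits, Gata2 with Nr5a1. Its slope was 0.74 ± 0.12 for Nr5a1 on Gata2 (SE, adjusted p = 4.38e-05, where 7.49% of all probe sets passed) and 0.66 ± 0.10 for Gata2 on Nr5a1 (2.51e-05, 10.3%). Over 43 animals r was 0.699 and rho 0.725 (permutation p = 1e-05 for both), and r was 0.724 without animals 15 and 14. Within animals 1 to 22 r was 0.0720 and within animals 23 to 43 it was 0.201. Both were lower than over all animals.

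A further 5 pairs passed in 1 of their fits, each among Gata2, Nr5a1, Isl1 and Tbx19. Leaving out 1 animal at a time lost the call of Tbx19 on Gata2 in 19 of 43 limma fits (adjusted p up to 0.0845), on Isl1 in 5 (up to 0.0716) and on Nr5a1 in 2 (up to 0.0599), and those of Isl1 on Gata2 and on Nr5a1 in 0. The closest by r was Isl1 with Tbx19, at r = 0.565 (permutation p = 1e-04) and rho = 0.583 (permutation p = 6e-05), with adjusted p of 0.0324 for Tbx19 on Isl1 (0.619% of all probe sets passed) and 0.0671 for Isl1 on Tbx19 (0.00322%). Its r was 0.535 without animals 22 and 16, 0.158 within animals 1 to 22 and 0.469 within animals 23 to 43. After the spline was removed it was 0.403, the highest of the 15 pairs. Pitx1 with Neurod1 did not pass (r = 0.379, permutation p = 0.0132, limma adjusted p = 0.0790 and 0.515), and its r was 0.540 and 0.263 within the number ranges. On Pitx1, 11.2% of all probe sets passed (0.0322% without animal 43), and on Neurod1 none of them did, with 2497 at an unadjusted p below 0.05.

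The factors were next set against 10 other genes of the lineages: receptors, a cofactor, enzymes and products. Of 60 such relations 13 passed in the limma fit on the factor. Gata2 passed with 5 genes, all positive, Nr5a1 with 5 positive and 1 negative, Isl1 and Pitx1 with 1 positive each, and Tbx19 and Neurod1 with 0. Of all probe sets, 4.33% passed with a positive slope on Gata2, 5.65% with a positive and 4.67% with a negative slope on Nr5a1, 0.419% with a positive slope on Isl1 and 6.91% on Pitx1. Unadjusted permutation p-values were below 0.05 for 4 genes with Tbx19 and for 1 with Neurod1. In the limma fits, 3251 of 31041 probe sets had an unadjusted p below 0.05 on Tbx19 and 2497 on Neurod1. Gnrhr, the receptor for gonadotropin-releasing hormone, had a slope on Gata2 of 0.83 ± 0.10 (SE, limma adjusted p = 1.72e-06; r = 0.778, permutation p = 1e-05) and on Nr5a1 of 0.66 ± 0.11 (9.99e-05; r = 0.664, permutation p = 1e-05). Nr0b1, also called Dax1, a nuclear receptor that acts with Nr5a1, had a slope on Nr5a1 of 0.79 ± 0.10 (3.30e-07; r = 0.787) and on Gata2 of 0.73 ± 0.12 (limma adjusted p = 1.04e-04; r = 0.676). After the spline of animal number was removed, the r of Gnrhr was 0.469 with Gata2 and 0.142 with Nr5a1, and that of Nr0b1 was 0.456 with Nr5a1 and 0.193 with Gata2. Within animals 1 to 22 and within animals 23 to 43, Gnrhr with Nr5a1 had an r of 0.157 and 0.0186, and Nr0b1 with Nr5a1 one of 0.468 and 0.575.

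Pomc itself, the corticotroph product, passed with Nr5a1 (slope 0.68 ± 0.21, SE, limma adjusted p = 0.0308) and with Gata2 (0.71 ± 0.23, 0.0427). Of the 43 fits that left out 1 animal, 6 lost the call with Nr5a1 (adjusted p up to 0.0649) and 17 that with Gata2 (up to 0.0842). With Tbx19, its best known activator, the slope was 0.46 ± 0.27 (limma adjusted p = 0.577; r = 0.250, permutation p = 0.107), and with Neurod1 it was 0.46 ± 0.35 (0.796; r = 0.192, permutation p = 0.220). Whether these relations differ was not tested, far fewer probe sets passed on Tbx19 than on Nr5a1 as given above, and the Pomc probe set was dim, at a median intensity of 29.2. Avpr1b, the vasopressin receptor of corticotrophs, likewise passed with Nr5a1 (0.57 ± 0.10, limma adjusted p = 9.38e-05) and Gata2 (0.57 ± 0.11, 0.000582), and had a slope on Tbx19 of 0.48 ± 0.14 (0.167). Its r with Nr5a1 was 0.667 over all animals and 0.260 after the spline was removed, and with Gata2 0.624 and 0.124. After the spline was removed, the r of Pomc with each of the 6 factors lay between -0.0880 and 0.173.

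Among receptors of the other lineages, Ghrhr, through which growth hormone-releasing hormone acts on somatotrophs, passed with Gata2 (slope 0.47 ± 0.09, SE, limma adjusted p = 2.62e-04) and Nr5a1 (0.34 ± 0.09, 0.0105). Its r was 0.653 with Gata2 and 0.501 with Nr5a1, and 0.339 and 0.0886 after the spline was removed. Drd2, the dopamine receptor that restrains lactotrophs, passed with a negative slope on Nr5a1 (-0.23 ± 0.07, limma adjusted p = 0.0195, and 0.0887 without animal 43). It passed with a positive slope on Pitx1 (0.64 ± 0.22, limma adjusted p = 0.0489), where r was 0.417 over all animals and 0.0817 without animal 43, with an adjusted p of 0.903. Gnrhr also passed with Isl1 (0.36 ± 0.08, limma adjusted p = 0.0311, lost in 5 of 43 fits that left out 1 animal, with up to 0.0705). After the spline was removed, Drd2 had an r of -0.0983 with Nr5a1 and 0.358 with Pitx1, and Gnrhr one of 0.287 with Isl1. No relation of Inha, Chga, Trhr or Dio2 with a factor passed.

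A list of 40 other transcription factors of the pituitary gave a wider comparison, of which 32 had a singly named probe set. On Cga 8 of them passed with a positive slope and 1 with a negative slope, where 7.82% and 7.11% of all probe sets did. The median slope on Cga was 0.09 over these 32 genes, 0.87 over the 6 factors and 0.02 over all probe sets. Nr0b1 had a slope of 1.28 ± 0.16 (SE, limma adjusted p = 1.67e-07), Foxl2, a forkhead factor of gonadotrophs, 1.03 ± 0.17 (2.32e-05), and Eya1, a partner of homeodomain proteins, 0.93 ± 0.10 (1.70e-08). Sox2, a factor of pituitary stem cells, had 0.82 ± 0.15 (limma adjusted p = 8.47e-05), and the glucocorticoid receptor Nr3c1 0.58 ± 0.08 (1.17e-06). Pou1f1, the factor shared by lactotrophs, somatotrophs and thyrotrophs, had 0.35 ± 0.09 (limma adjusted p = 0.00422). Six6, which keeps progenitors dividing in mouse, was the gene with a negative slope, -0.26 ± 0.09 (limma adjusted p = 0.0385, and 0.310 without animal 43). Pax6 and Msx1 completed the 8 positive calls, of which that of Msx1 was lost in 26 of 43 fits that left out 1 animal (limma adjusted p up to 0.154). Esr1, the receptor through which estrogens act, was dim (mean 6.40 ± 0.62, SD, n = 43), and its slope on Cga of 0.49 ± 0.25 did not pass (limma adjusted p = 0.214).

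The same 8 genes passed with a positive slope on Gh1 and on Tshb, and on Fshb Sox11 stood in the place of Msx1. The calls of Pou1f1, Pax6, Msx1 and Sox11 in these 3 fits were each lost without at least 1 animal, and those of Nr0b1, Foxl2, Eya1, Sox2 and Nr3c1 in none of the 43 limma fits. On Prl 2 of the 32 passed, where 6.62% of all probe sets did: Pou1f1 (0.78 ± 0.24, SE, limma adjusted p = 0.0394) and Eya1 (1.37 ± 0.41, 0.0322). Without animal 43 their adjusted p was 0.869 and 0.580. On Lhb 0 of 32 passed in the limma fits, as for the lineage factors. The course over animal number passed for 8 of 32, where 15.9% of all probe sets did, among them Nr3c1 with 68.3% of its variance, Sox2 with 63.7% and Eya1 with 59.9%. Of the 8, Six6 was lost in 12 of 43 limma fits that left out 1 animal (adjusted p = 0.690 without animal 43) and Creb1 in 3.

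**Figure D5:**
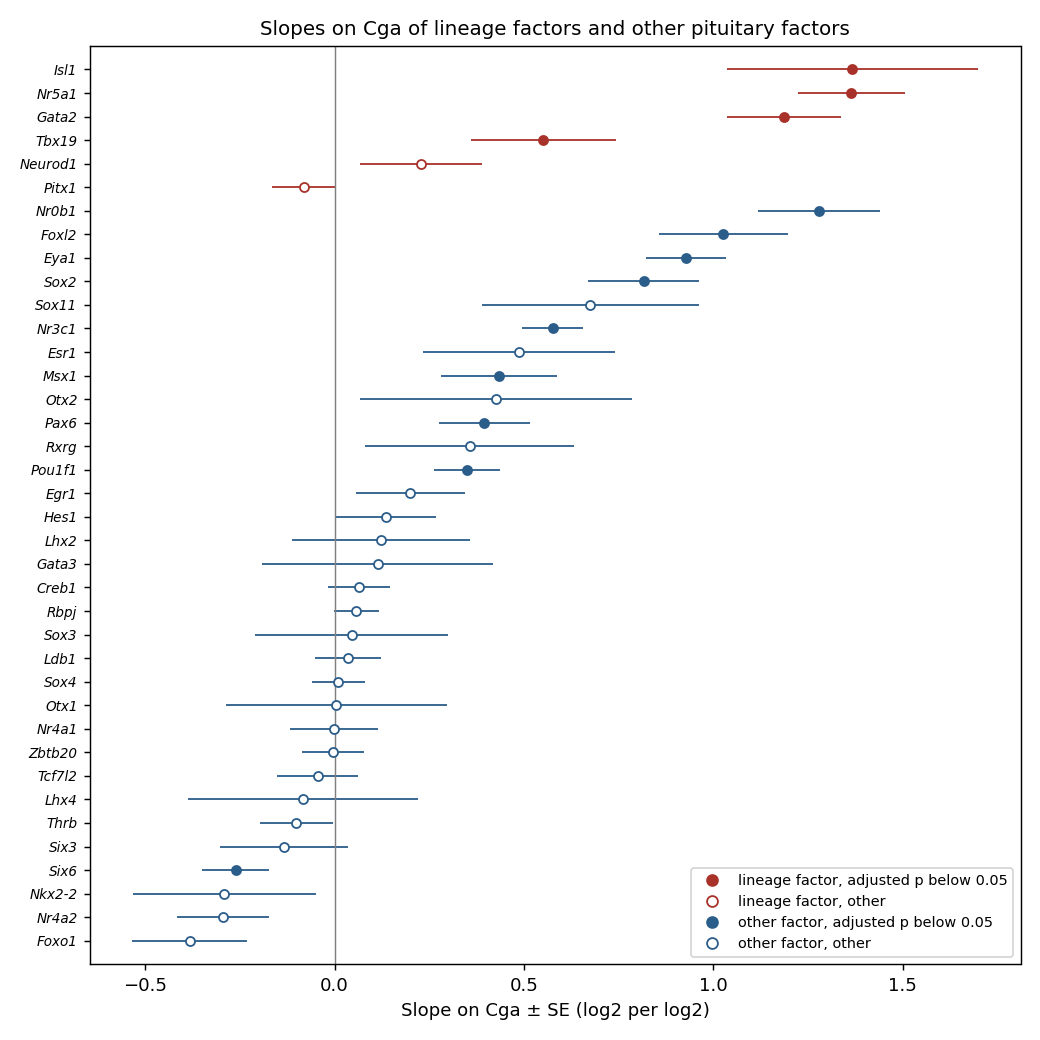
Slope on Cga, in log2 per log2 with its standard error, of the 6 lineage factors (red, top) and 32 other pituitary transcription factors (blue), filled where the limma adjusted p was below 0.05. Isl1, Nr5a1, Gata2 and Tbx19 are filled, at slopes of 0.55 to 1.37, and among the other factors Nr0b1 is highest at 1.28.

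The genes most like each factor across the 43 animals were searched among 9407 genes above the median level, by Pearson r and as a description. For Nr5a1 they were Cga (r = 0.832), the endothelial receptor kinase Tek (0.815) and Gh1 (0.814), and after the step was removed these were 0.485, 0.515 and 0.497. For Pitx1 they were Tp53i11 (0.759), Anp32b (0.758) and the steroid sulfatase Sts (0.753), which were 0.598, 0.591 and 0.591 without animal 43. For Neurod1 they were Gramd1b (0.608), Tma16 (0.604) and Cep19 (0.590), nearly unchanged by removal of the step at 0.604, 0.601 and 0.582. Pitx1 and Neurod1 thus had their likest genes outside the hormone genes, and the same held for Gata2, Isl1 and Tbx19, given below. Only Nr5a1 had hormone genes, Cga and Gh1, among its likest genes, so this trait does not set Pitx1 and Neurod1 apart.

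The same search for the 3 dimmer factors was added after their values were seen. For Gata2 it gave Prr15 (r = 0.834), Plaat3 (0.781) and Gnrhr (0.778), and 0.427, 0.172 and 0.372 after removal of the step. For Isl1 it gave Tmed8 (0.703), Dclk2 (0.648) and Nabp1 (0.640), and 0.444, 0.419 and 0.289 after removal of the step. For Tbx19 it gave Pacsin3 (0.640), Maea (0.601) and Coq8b (0.596), which were 0.479, 0.541 and 0.504 with the step removed. Gnrhr, a gene of gonadotrophs, was the only one of these 9 genes that also stands in the lists of lineage genes.

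Markers of other cells were set beside the fit on Cga, in which 7.82% of all probe sets passed with a positive and 7.11% with a negative slope. Of 3 measured markers of folliculostellate and stem cells, 3 passed with a positive slope on Cga (Sox2, S100b, Fxyd1), and their summed level ranged from 9.84 to 11.12 log2 units among animals. Of 3 blood markers 2 did (Hbb, Alas2; summed level 12.48 to 15.51), of 3 endothelial markers 1 (Tek; 10.50 to 11.18), of 4 fibroblast markers 2 were positive (Dcn, Lum) and 1 negative (Col3a1; 8.86 to 10.87), and of 5 markers of macrophages and leukocytes 1 was positive (Csf1r) and 2 negative (Cd68, Mrc1; 12.00 to 13.66). Leaving out 1 animal at a time lost the call of Alas2 in 3 of 43 limma fits (adjusted p = 0.105 without animal 43) and that of Col3a1 in 2. In the fit on Prl, Hbb and Tek passed with a positive slope, with a limma adjusted p of 0.685 and 0.618 without animal 43. Of 3 listed markers of the intermediate lobe 2 were measured, Pomc and Pcsk2 (summed level 9.59 to 11.43). On Cga, Pomc passed with a positive slope (limma adjusted p = 0.0185) and Pcsk2 with a negative slope (1.99e-05). Both calls were lost in 0 of 43 fits that left out 1 animal. The directions were the same on Gh1, Tshb and Fshb. On Prl, Pcsk2 passed with a negative slope (limma adjusted p = 0.0469), a call lost in 23 of 43 fits. The part of these markers in the relations of the factors was not tested. Leaving out 1 animal does not take away the course over animal number. In the limma fit that course passed for Sox2, S100b, Fxyd1, Hbb, Alas2, Tek, Dcn, Lum, Csf1r, Mrc1 and Pcsk2. It did not pass for Pomc, Col3a1 and Cd68, and 15.9% of all probe sets passed. With the spline of animal number as a covariate, 0.087% of all probe sets passed on Cga. Of the 5 markers of posterior lobe and hypothalamus 0 passed in the limma fit on any of the 6 hormones, and their summed level ranged from 6.79 to 8.36.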

How the data were processed

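Anterior pituitary RNA of 43 animals was hybridised with 1 biotin-labelled sample per array. The deposited values are intensities on a linear scale, 1 for each probe set of an array, which the authors had scaled: after leaving out 2% of probe sets at either end, array means were 500.17 to 500.22. Software and genome build are not given in the sources used here. No scaling was added, 16 was added and the log2 was taken, which understates differences of dim probe sets. The 57 control probe sets were left out, and no filter on dim probe sets was applied. Every probe set was regressed on the level of a hormone or factor gene, or on a natural spline of animal number with 6 degrees of freedom (limma 3.58.1 in R 4.3.3, lmFit and eBayes), with the probe sets of the predictor left out, 2-sided p-values and Benjamini-Hochberg adjustment over all probe sets at a threshold of 0.05. Pearson r and Spearman rho carry 2-sided permutation p-values from 100000 permutations (scipy 1.17.1), over 36 hormone and factor, 15 factor and 60 target relations. Since nothing but separate animal numbers tells the samples apart, the p-values measure the spread between these animals taken as independent. Successive animal numbers were alike for several genes, so these p-values can be too small. The animals were selected for pituitary weight and not drawn at random.

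The factors, hormone genes, lists, motifs and the step between animals 22 and 23 were chosen with earlier results of these data known. Genes named are the 8 factors, the 6 hormone genes and Pomc, members of the lists, and for each factor above the median level the 3 genes with the highest r, with the addition stated for the dimmer factors. Intervals of slopes use 41 residual degrees of freedom. The regression was tested on simulated data with independent animals. It recovered 100% of slopes of 1 residual SD and 18% of slopes of 0.5 residual SD. A relation that did not pass can thus still be present. Alternatives were another offset, 2 scalings, a filter on dim probe sets, array quality or animal number as covariates, normal scores, a spline with 3 degrees of freedom, all probe sets of a gene and leaving out each animal. Since Lhx3 and Hesx1 were not analysed, the 6 other factors gave 15 pairs. The promoter windows were limited to the bases before the gene start, and no window was at hand for Fshb, Gh1 and Pitx1. Genotypes were not used here.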

Additional observations from a re-analysis of the deposited data

How the results depend on the processing

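The 15 factor and hormone relations kept their direction and their side of the threshold with an offset of 1, quantile normalization, array quality as covariates and the mean of all probe sets of a gene. With array medians subtracted (slope 0.49, limma adjusted p = 0.0889) and with normal scores (0.17, 0.105), Tbx19 on Cga was lost. With the spline of animal number 0 factors passed on Gh1, Cga, Tshb and Fshb and 0 pairs passed, and the step gave 0 for the same counts. With the step, 3 slopes turned negative: Isl1 on Gh1 (-0.26, limma adjusted p = 0.895), Isl1 on Cga (-0.012, 0.997) and Tbx19 on Cga (-0.42, 0.615). The cause was not tested. The filter on dim probe sets left 3 factors, of which 1 passed on each of Gh1 (24.1% of all probe sets so filtered), Cga (31.0%), Tshb (27.9%) and Fshb (24.2%), 2 with animal number (39.0%), and 0 of the pairs. It took out Gata2, Isl1 and Tbx19, so their relations were not tested with it. The 0 for pairs says nothing about Gata2 with Nr5a1, which could not be called without Gata2. Array quality as covariates left 2 factors with animal number (5.69% of all probe sets), and the mean of all probe sets left 0 pairs.

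Leaving out each animal gave 3 to 4 factors on Cga, 2 to 3 on Gh1, 4 on Tshb and Fshb, 0 on Prl and Lhb, 2 to 5 with animal number (2 without animal 43) and 1 to 3 pairs. Counts over all probe sets moved further: 4635 on Cga were 27 with the spline, 28 with the step and 3064 after quantile normalization, 3498 on Gh1 were 3, 4 and 2142, 4107 on Tshb were 124 and 25 with spline and step, and 3538 on Fshb were 178 and 3. On Prl 2055 were 0 after quantile normalization, 51 with array quality, 108 with normal scores, 97 with the spline, 1223 with the step and 66 without animal 43. On Pitx1, 3467 were 10 without animal 43. With animal number 4939 were 1765 with array quality and 2795 without animal 43. On Lhb 10 were 56 with the filter on dim probe sets, 40 with normal scores, 2 after quantile normalization, 1 with array medians subtracted, 0 with spline or step and 0 to 30 without each animal. No paired analysis was possible because the animals form 1 group. The dim probe sets of Gata2, Isl1 and Tbx19 limit what their values can show.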
